A study of Mus musculus with 10 samples.

Results

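The report concerns 10 transcription factor genes that act in intermediate progenitors and deep-layer neurons of the embryonic cortex: Eomes, Insm1, Tbr1, Fezf2, Bcl11a, Bcl11b, Myt1, Myt1l, Ebf2 and Ebf3. They were chosen by symbol, as probe sets annotated with exactly 1 of these names, and for each gene the probe set with the highest mean was kept. All 10 were found among the 22180 genes measured. RNA of embryonic cortex, from CD1 mice at day 12 to 13 of gestation, was hybridised to Affymetrix Mouse Gene 2.0 ST arrays, and the labels name no genetic change or treatment. The 10 arrays held RNA co-precipitated with an antibody to 4E-T (4E-T 1, 2 and 3), RNA co-precipitated with control IgG (IgG 2, 3 and 4) and total RNA taken as input (input 1 to 4). The series describes 3 biological replicates of each kind, whereas its labels list 4 inputs. Levels are the deposited log2 intensities, so a difference of 1 is a change of 2-fold, and levels of different probe sets are not compared as expression.

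During cortical neurogenesis, radial precursors give rise to neurons directly or through intermediate progenitors, which divide in the subventricular zone. Eomes (Tbr2) marks intermediate progenitors, and the earliest neurons they and the radial precursors make settle in the deep layers, where Tbr1, Fezf2 and Bcl11b (Ctip2) help to set apart the corticothalamic and subcerebral projection types. 4E-T is a protein that binds the cap-binding factor eIF4E and is known for repressing translation and for its place in processing bodies, so an mRNA enriched with its antibody over control IgG is a candidate target. The comparison with IgG asks which transcripts came down with the antibody, and the comparisons of each precipitate with input ask how the precipitated RNA differed from the RNA of the tissue.

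The arrays were not all on one scale. The median log2 value over all probe sets was 3.52 on 4E-T 1 and 3.54 on input 1, and lay between 4.33 and 4.54 on the other 8 arrays. Differences are therefore given from a limma fit with a term for group and a term for this lower set. The same fit with the group alone, in which the scale counts as replicate spread, called none of the 10 members in any comparison, where it called 1.35% of all genes between 4E-T and IgG, 6.14% between 4E-T and input and 5.44% between IgG and input. Leaving the set term out moved the median of all genes from 0.026 to -0.19 for 4E-T over IgG and from 0.026 to 0.20 between IgG and input. No call of a member below was made with the group alone on the deposited values. After median centring of each array, the group alone called Tbr1, Insm1 and Bcl11b higher for 4E-T over input. It called Tbr1, Bcl11b and Myt1 higher for IgG over input, and no member for 4E-T over IgG. In that centred fit, 4 members had an unadjusted limma p under 0.05 for 4E-T over input, all higher. Of all genes, 22.8% did so in either direction. For IgG over input 5 members were higher and 1 lower at that p, beside 24.9% of all genes. For 4E-T over IgG 0 were higher and 1 lower, beside 20.6%. Levels of markers of the labelled tissue and of other cells were read as a description. Neurod6, made by new excitatory neurons, read 10.1 to 11.5, the proneural factor Neurog2 8.40 to 10.4, and the dorsal cortex factor Emx2 8.57 to 9.86. Emx1, another dorsal cortex factor, read 5.92 to 7.09. The mean level per array was 8.42 to 9.19 for 7 dorsal cortex markers and 8.54 to 9.49 for 10 new neuron markers. The lists of markers of other cells had a mean level per array of 3.89 to 4.90 for microglia and macrophages, 3.27 to 4.83 for meninges and mesenchyme, 4.34 to 5.35 for ventral forebrain and interneurons and 6.64 to 7.88 for 5 erythroid genes. The mean level was 4.37 to 5.19 for endothelial markers and 4.84 to 5.85 for Cajal-Retzius markers. Single genes of those lists read higher, such as Hbb-y at 9.81 to 11.1, Dlx5 at 6.59 to 7.67 and Cx3cr1 at 4.72 to 7.58. These are levels of different probe sets with no detection calls, so they give no order between genes or lists and no share of any cell type. In bulk tissue, fewer cells of a type and less RNA per cell cannot be told apart.

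None of the 10 members passed the test for 4E-T over IgG. The threshold was an adjusted p under 0.05 (limma with Benjamini-Hochberg adjustment over all genes), at which 10.5% of all genes were called, 7.57% higher and 2.92% lower. At an unadjusted p under 0.05, 0 members were higher and 1 was lower, where 23.8% of all genes passed in either direction. The members' median difference was 0.029, beside 0.026 over all genes, and 5 of the 10 differences were above 0. Against input, some members passed in each precipitate, and Fezf2 was below 0 in both. With 4E-T, 3 of 10 members were higher than input (Insm1, Tbr1 and Bcl11b) and 0 lower, where 10.4% of all genes were higher, 8.86% lower and 19.3% either. With IgG, 4 of 10 were higher than input (Tbr1, Bcl11b, Myt1 and Insm1) and 0 lower, where 6.14% of all genes were higher, 10.5% lower and 16.6% either. The median member difference from input was 0.42 with 4E-T and 0.43 with IgG, with 9 of 10 above 0 in each, beside medians of 0.037 and 0.026 over all genes. Both precipitates were set against the same input arrays, so these 2 comparisons share their error. The shares of all genes here and below include dim genes, while every member lay above the median level (lowest Ebf3, percentile 62.7). At an unadjusted p under 0.05 in limma, 5 of 10 members passed against input with each precipitate, all higher. Beside them stood 29% of all genes with 4E-T and 28.1% with IgG, in either direction. With genes under the median level left out, 5 members passed in each again, beside 51.2% and 46.2% of the genes kept.

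**Figure D1:**
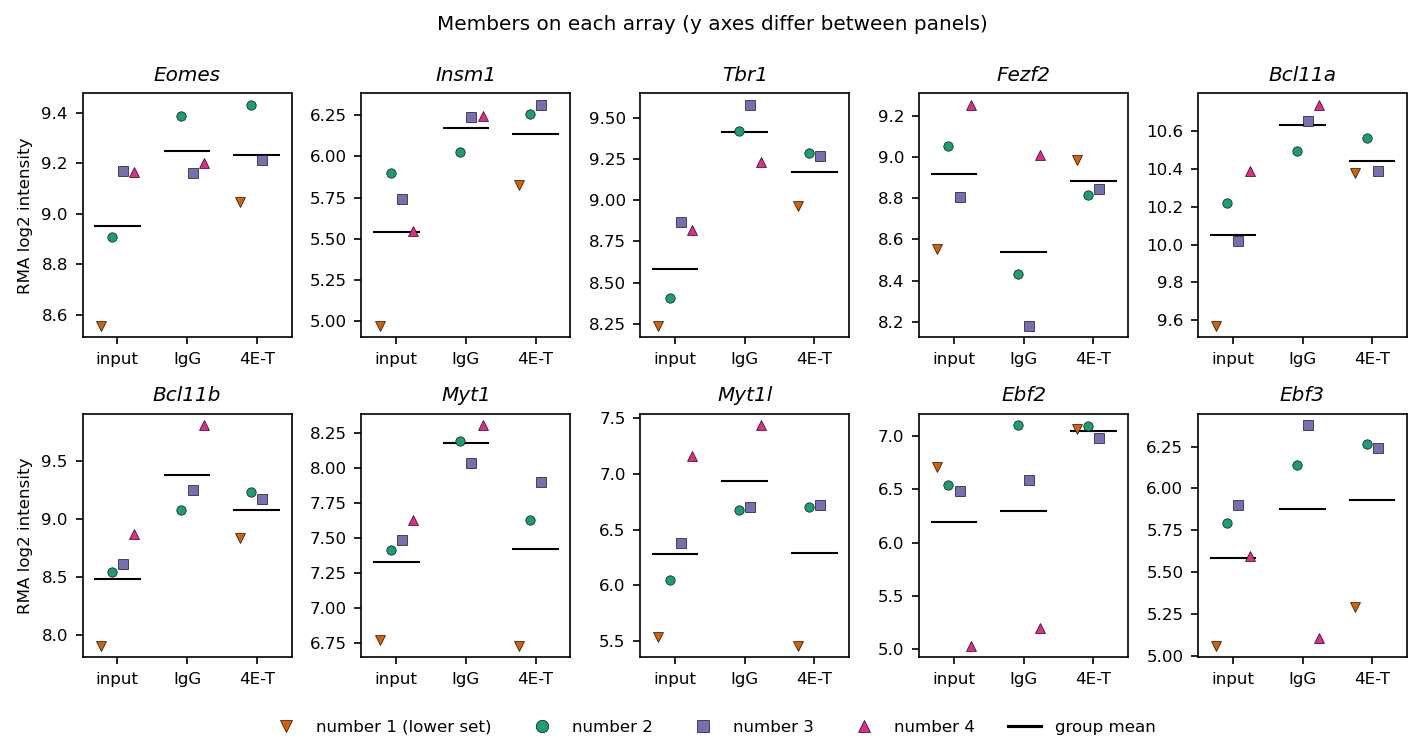
RMA log2 intensity (y axes, each panel with its own range) of the 10 members on the 4 input, 3 IgG and 3 4E-T arrays. Points are single arrays, their shape and colour give the replicate number, and black bars are group means. Number 1 (lower set) is the lowest input for 9 of the 10 members, and Ebf2 is low on both arrays numbered 4.

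**Figure D2:**
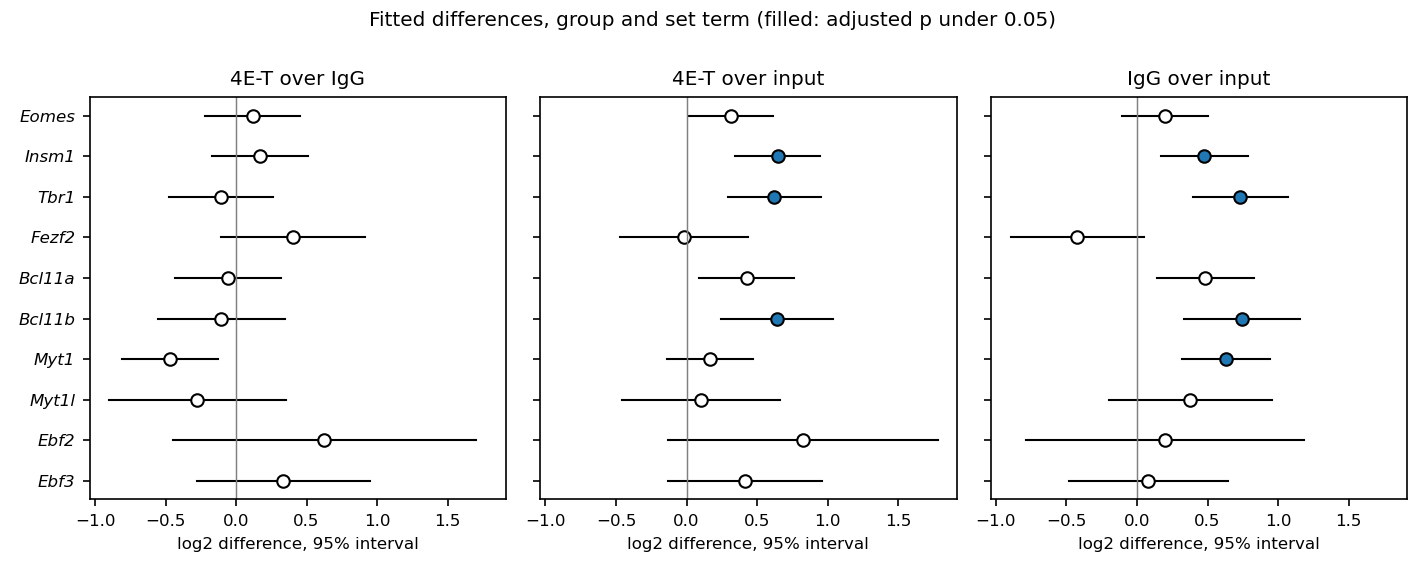
Fitted log2 differences (x axes) of the 10 members with 95% confidence intervals, in 3 panels by comparison, from the fit with group and set terms on 10 arrays. Filled points had an adjusted p under 0.05, as 3 members did between 4E-T and input, 4 between IgG and input and 0 between 4E-T and IgG.

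Eomes, the T-box factor that marks intermediate progenitors (probe set 17522876), read 9.05, 9.43 and 9.21 on 4E-T 1, 2 and 3, 9.39, 9.16 and 9.20 on IgG 2, 3 and 4, and 8.56, 8.91, 9.17 and 9.17 on inputs 1 to 4. The precipitates overlapped each other and the inputs. The 4E-T over IgG difference was 0.12 ± 0.15 (SE; adjusted p = 0.725 in limma), with a 95% interval of -0.22 to 0.45. Against input the difference was 0.32 ± 0.14 with 4E-T (adjusted p = 0.145) and 0.20 ± 0.14 with IgG (adjusted p = 0.407). Eomes was above the input of the same number in 3 of 3 cases with 4E-T, by 0.49, 0.52 and 0.05.

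Insm1, a zinc finger factor that promotes the formation of intermediate progenitors (probe set 17377253), was higher in both precipitates than in input. It read 5.83, 6.26 and 6.32 on the 4E-T arrays, 6.03, 6.24 and 6.24 on the IgG arrays and 4.97, 5.90, 5.74 and 5.55 on the inputs. All IgG arrays lay above all inputs, while 4E-T 1, of the lower set, lay below input 2. With 4E-T, Insm1 was 1.57-fold input (log2 difference 0.65 ± 0.14, adjusted p = 0.00579 in limma), above the input of the same number in 3 of 3 cases, and it stayed called when any 1 array was left out. With IgG it was 1.39-fold input (0.48 ± 0.14, adjusted p = 0.0388), and this call was kept in 2 of the 10 fits that left out 1 array, with adjusted p from 0.0348 to 0.112. The 4E-T over IgG difference was 0.17 ± 0.15 (adjusted p = 0.584), with an interval of -0.17 to 0.51.

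Tbr1, the T-box factor of corticothalamic neurons and a paralogue of Eomes (probe set 17371148), was higher in both precipitates than in input. It read 8.96, 9.29 and 9.27 on the 4E-T arrays, 9.42, 9.58 and 9.23 on the IgG arrays and 8.24, 8.41, 8.87 and 8.82 on the inputs. Every array of either precipitate lay above every input. Tbr1 was 1.54-fold input with 4E-T (0.62 ± 0.15, adjusted p = 0.0112 in limma) and 1.66-fold input with IgG (0.73 ± 0.15, adjusted p = 0.00662). The first call was lost without 4E-T 1 or without input 1 (adjusted p = 0.0574), and the second was kept whichever array was left out. Between 4E-T and IgG the difference was -0.11 ± 0.17 (adjusted p = 0.775).

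Bcl11b, a zinc finger factor of subcerebral projection neurons (probe set 17283871), was higher in both precipitates. It read 8.84, 9.23 and 9.17 on the 4E-T arrays, 9.07, 9.24 and 9.81 on the IgG arrays and 7.90, 8.55, 8.61 and 8.87 on the inputs. The IgG arrays lay above all inputs and 4E-T 1 lay just below input 4. Bcl11b was 1.56-fold input with 4E-T (0.64 ± 0.18, adjusted p = 0.0268 in limma) and 1.68-fold input with IgG (0.75 ± 0.19, adjusted p = 0.0174). The 4E-T call was kept in 4 of the 10 fits that left out 1 array: it was lost without any 1 of 4E-T 1, 2 and 3 or inputs 1, 2 and 3, with adjusted p up to 0.148. The IgG call was kept in 8 of 10 and lost without input 2 or input 3, with adjusted p up to 0.0574. The 4E-T over IgG difference was -0.10 ± 0.21, with a 95% interval of -0.55 to 0.34, and was not called.

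Bcl11a, the paralogue of Bcl11b (probe set 17247852), read 10.38, 10.56 and 10.39 on the 4E-T arrays, 10.50, 10.65 and 10.74 on the IgG arrays and 9.57, 10.22, 10.02 and 10.39 on the inputs. All IgG arrays lay above all inputs, and 4E-T 1 and 3 lay just below input 4. The difference from input was 0.43 ± 0.15 with 4E-T (adjusted p = 0.0770 in limma) and 0.48 ± 0.16 with IgG (adjusted p = 0.0576), and 4E-T over IgG was -0.059 ± 0.17 (adjusted p = 0.891). A second, dimmer probe set of Bcl11a went another way. It read 7.43, 8.54 and 8.36 on the 4E-T arrays, 8.89, 8.94 and 8.76 on the IgG arrays and 7.66, 8.67, 8.66 and 8.68 on the inputs, so that every 4E-T array lay below every IgG array. Its differences were -0.22 for 4E-T over input (adjusted p = 0.251), 0.19 for IgG over input (adjusted p = 0.349) and -0.42 ± 0.13 for 4E-T over IgG (adjusted p = 0.0710). The 2 probe sets thus differed in sign for 4E-T over input, and neither was called in the fit with group and set terms. The brighter one was near the threshold. It was called for 4E-T over input in 6 of 19 alternatives: with the replicate block, quantile normalization (0.63, adjusted p = 0.0107), the filter on dim genes (adjusted p = 0.0362), eBayes with trend and robust settings (adjusted p = 0.0262), without input 4 (adjusted p = 0.0447) and without both arrays numbered 4 (adjusted p = 0.0384). Between IgG and input it was called in 4 of 19: with quantile normalization (0.68, adjusted p = 0.00971), the filter (adjusted p = 0.0274), trend and robust settings (adjusted p = 0.0181) and without input 4 (adjusted p = 0.0377). The mean of both probe sets gave 0.10 for 4E-T over input (adjusted p = 0.697).

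Fezf2, the zinc finger factor that specifies subcerebral projection neurons (probe set 17303496), was the member whose fitted differences from input were below 0. It read 8.99, 8.82 and 8.84 on the 4E-T arrays, 8.43, 8.18 and 9.01 on the IgG arrays and 8.55, 9.05, 8.81 and 9.26 on the inputs. The groups overlapped, with IgG 2 and 3 below all other arrays and IgG 4 among the inputs. The differences were -0.019 ± 0.21 for 4E-T over input (adjusted p = 0.976 in limma), -0.42 ± 0.21 for IgG over input (adjusted p = 0.229) and 0.40 ± 0.23 for 4E-T over IgG (adjusted p = 0.344). Without IgG 4, IgG over input was -0.66 (adjusted p = 0.0408), and 4E-T over IgG was 0.64 (adjusted p = 0.0805).

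Myt1, a zinc finger factor that promotes neuronal differentiation (probe set 17381143), was the member with the lowest 4E-T over IgG difference. It read 6.72, 7.62 and 7.90 on the 4E-T arrays, 8.19, 8.03 and 8.30 on the IgG arrays and 6.77, 7.41, 7.48 and 7.63 on the inputs. All IgG arrays lay above all other arrays, and the 4E-T arrays spread slightly wider than the inputs. Myt1 was 1.55-fold input with IgG (0.63 ± 0.14, adjusted p = 0.00983 in limma), called whichever array was left out, while 4E-T over input was 0.17 ± 0.14 (adjusted p = 0.519). The 4E-T over IgG difference was -0.47 ± 0.16 and missed the threshold (adjusted p = 0.0824). Myt1 was the 1 member of 10 whose 4E-T arrays all lay below the IgG arrays, where 14.5% of all genes did so. It was called lower after quantile normalization of all arrays (-0.65, adjusted p = 0.0233) and when genes under the median level were left out (adjusted p = 0.0386). Over all 19 alternatives its adjusted p ran up to 0.327.

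Myt1l, a paralogue of Myt1 that represses non-neuronal genes in neurons (probe set 17274670), read 5.45, 6.70 and 6.72 on the 4E-T arrays, 6.67, 6.70 and 7.44 on the IgG arrays and 5.54, 6.05, 6.38 and 7.16 on the inputs. Its highest values were on the arrays numbered 4 and its lowest on those numbered 1. None of its differences passed: -0.27 ± 0.29 for 4E-T over IgG (adjusted p = 0.643 in limma), 0.10 ± 0.26 for 4E-T over input (adjusted p = 0.868) and 0.38 ± 0.26 for IgG over input (adjusted p = 0.401).

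Ebf2 and Ebf3 are helix-loop-helix factors that act in neuronal differentiation, and in the early cortex both are known from Cajal-Retzius neurons. Ebf2 (probe set 17301536) read 7.06, 7.10 and 6.98 on the 4E-T arrays, 7.11, 6.59 and 5.20 on the IgG arrays and 6.71, 6.54, 6.49 and 5.03 on the inputs. The 4E-T arrays lay together above all inputs, while IgG and input each held 1 low array, number 4 in both. The differences were 0.82 ± 0.44 for 4E-T over input (adjusted p = 0.251 in limma), 0.63 ± 0.49 for 4E-T over IgG (adjusted p = 0.512) and 0.20 ± 0.45 for IgG over input (adjusted p = 0.832). Without both arrays numbered 4, an alternative chosen after seeing the data, they were 0.47 for 4E-T over input (adjusted p = 0.0650) and 0.16 for 4E-T over IgG (adjusted p = 0.646). A second, dim probe set of Ebf2, with a mean of 3.63, gave -0.070 for 4E-T over input and -0.093 for 4E-T over IgG. Ebf3 (probe set 17497366) read 5.29, 6.26 and 6.24 on the 4E-T arrays, 6.14, 6.38 and 5.10 on the IgG arrays and 5.06, 5.79, 5.90 and 5.60 on the inputs, with IgG 4 just above the lowest input. Its differences were 0.33 ± 0.28 between 4E-T and IgG (adjusted p = 0.544), 0.42 ± 0.25 between 4E-T and input (adjusted p = 0.322) and 0.081 ± 0.26 between IgG and input (adjusted p = 0.884). Without IgG 4, the Ebf3 difference between 4E-T and input was unchanged in size and was called (adjusted p = 0.0471).

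Counted over the members, the 4E-T arrays all lay above the inputs for 2 of 10 (Tbr1 and Ebf2), where 6.45% of all genes did so. The IgG arrays all lay above the inputs for 5 of 10 (Tbr1, Insm1, Bcl11a, Bcl11b and Myt1), where 14.1% of all genes did so. These counts use the deposited values, in which 4E-T 1 is in the lower set and no IgG array is. The counts for 4E-T and IgG are therefore not on equal terms. With 4E-T set against the input of the same number, 7 of 10 members were above it in 3 of 3 cases, where 26.3% of all genes were. With the replicate number as a block, 5 of 10 members were higher in 4E-T than in input, where 10.9% of all genes were. The added members were Bcl11a (0.49, adjusted p = 0.0430) and Ebf2 (0.45 ± 0.14, adjusted p = 0.0448). In the 8 arrays outside the lower set, 1 of 10 members was called higher, Insm1, where 8.88% of all genes were.

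Paralogues were compared within each array, as the log2 value of the first minus that of the second, which removes any shift the array gives to both. The data were 4 pairs in 3 comparisons, or 12 exact two-sided permutation tests. Eomes minus Tbr1 was 0.37 ± 0.092 on the inputs (SD, n = 4), 0.059 ± 0.10 on the 4E-T arrays (SD, n = 3) and -0.16 ± 0.22 on the IgG arrays (SD, n = 3). All arrays of both precipitates lay below all inputs, the differences were -0.31 with 4E-T and -0.53 with IgG, and for each the exact permutation p was 0.0571, the smallest that 3 against 4 arrays can give (adjusted p = 0.343 over the 12 tests). Tbr1 alone also lay above all inputs in both precipitates, while Eomes overlapped them, so this separation is not independent of the Tbr1 result. Between 4E-T and IgG the pair differed by 0.22 (exact permutation p = 0.300, where 0.1 is the smallest possible). Bcl11a minus Bcl11b was 1.57 ± 0.13 on the inputs, 1.37 ± 0.16 with 4E-T and 1.26 ± 0.28 with IgG (SD). Myt1 minus Myt1l was 1.04 ± 0.40, 1.12 ± 0.18 and 1.24 ± 0.33 (SD). Ebf2 minus Ebf3 spread most, at 0.61 ± 0.91 on the inputs, 1.11 ± 0.57 with 4E-T and 0.42 ± 0.47 with IgG (SD). For these 3 pairs the groups overlapped and the exact permutation p ran from 0.171 to 0.914.

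**Figure D3:**
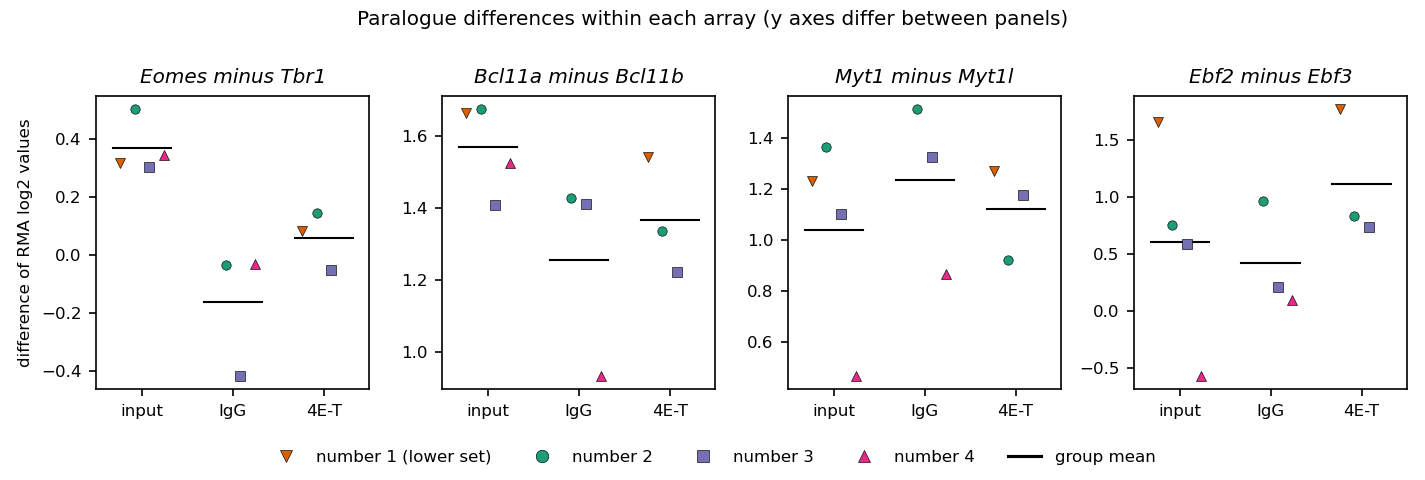
Difference in RMA log2 value between paralogues on the same array (y axes, each panel with its own range), for inputs, IgG and 4E-T. Points are single arrays marked by replicate number and black bars are group means. Eomes minus Tbr1 lies higher on all 4 inputs than on any precipitate, with means of 0.37 on the inputs, -0.16 with IgG and 0.059 with 4E-T.

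The arrays numbered 4 differed from those numbered 2 and 3 at some members, a pattern picked out after the values were seen, and there was no 4E-T array of that number. Ebf2 on input 4 differed from the mean of inputs 2 and 3 by -1.49 on the log2 scale, the 20th lowest of 22180 genes, and on IgG 4 the difference from IgG 2 and 3 was -1.65, the 36th lowest. Ebf3 differed by -0.25 on input 4 and -1.16 on IgG 4. Their paralogue Ebf1 was also lower there, at 4.65 on input 4 against 5.76 and 5.83 on inputs 2 and 3. On IgG 4 Ebf1 read 5.13, against 6.61 and 6.20 on IgG 2 and 3. Myt1l went the other way, by 0.95 and 0.75, as did Fezf2, by 0.32 and 0.71, and Bcl11b, by 0.29 and 0.65. Markers of new neurons were higher on both arrays numbered 4 for 10 of 10 genes (medians 0.41 and 0.37), where 28.6% of all genes were. Of 15 radial precursor markers, 7 were lower on both and 4 higher on both, and of 8 Cajal-Retzius markers 1 was lower on both and 4 higher on both. The erythroid markers were lower on both for 5 of 5 genes, where 27.6% of all genes were. Of 9 meningeal and mesenchymal markers 5 were lower on both and 0 higher on both. Of 19 paralogues of the members 8 were lower on both and 5 higher on both. The part of these differences between arrays in the members' results was not tested, other than by the fits without the arrays numbered 4.

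**Figure D4:**
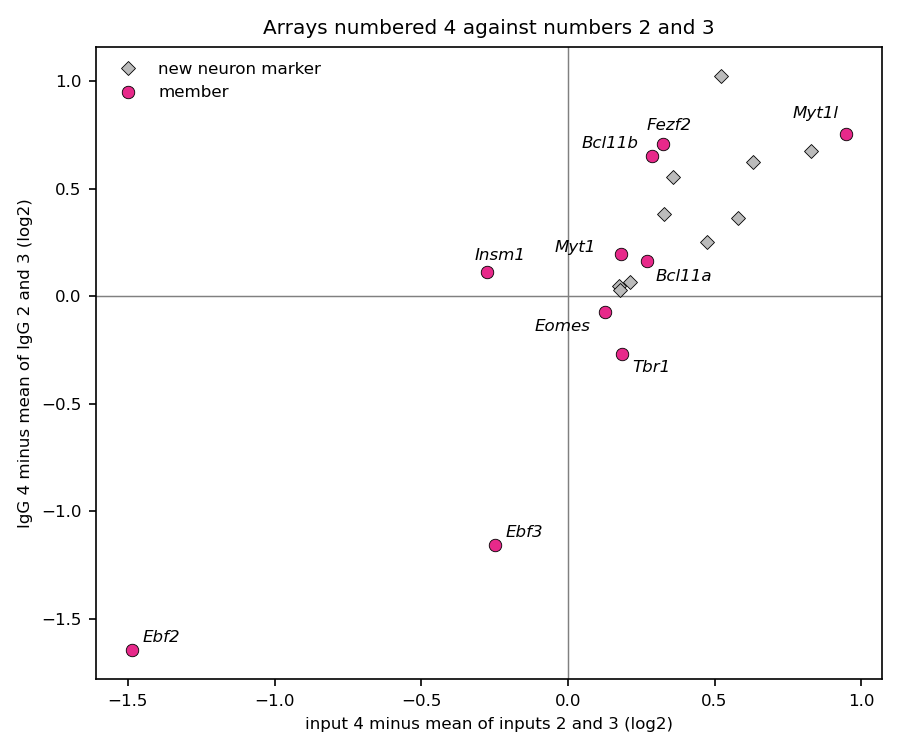
Log2 value on input 4 minus the mean of inputs 2 and 3 (x axis) against IgG 4 minus the mean of IgG 2 and 3 (y axis). Circles are the 10 members and diamonds are 10 markers of new neurons. Ebf2 lies at -1.49 and -1.65, Myt1l at 0.95 and 0.75, and all the markers lie above 0 on both axes.

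As a description with no test, members were correlated over the 10 arrays after the fitted set effect was removed; the arrays share their groups, so these values carry the group differences. The closest pairs were Bcl11a with Bcl11b (r = 0.917) and Ebf2 with Ebf3 (r = 0.851), followed by Insm1 with each Bcl11 gene (both r = 0.791) and Eomes with Tbr1 (r = 0.773). The most opposed pair was Myt1l and Ebf2 (r = -0.671). With predicted genes, clones, small RNAs and chemoreceptors left out, the 2 genes most like Insm1 were Irf2bpl (r = 0.987) and Ldb1 (r = 0.970), and the 2 most like Bcl11b were Prdm8 (r = 0.987) and Scn3a (r = 0.969). For Tbr1 they were Cypt4 (r = 0.974) and Bach1 (r = 0.960), and for Myt1 they were Zfp352 (r = 0.970) and Cplane1 (r = 0.965). Each was picked for the highest r among all remaining genes over 10 arrays, so high values follow in part from the choice. Cypt4 had a mean level of only 4.28, near the array medians.

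Genes related to the members were read from 4 lists taken by name. Of 19 paralogues of the members, none was called for 4E-T over IgG, and St18 and Mga were higher than input in both precipitates. These 2 of 19 stood beside 10.4% of all genes higher with 4E-T, a share near that of the list, and 6.14% with IgG. St18, the third member of the Myt1 family, was higher by 0.69 with 4E-T (adjusted p = 0.00647 in limma) and by 0.50 with IgG (adjusted p = 0.0451), and Mga, a T-box protein that partners Max, by 0.60 and 0.69. As with the members called against input, neither was called with the group alone.

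Among 50 other transcription factors of cortical neurogenesis, 14 were higher and 1 lower in 4E-T over IgG (all genes 7.57% and 2.92%), beside 0 of the 10 members; the difference between the lists was not tested. The named extremes were Prox1 (1.34 ± 0.33, adjusted p = 0.0246 in limma), the cofactor Zfpm2 (1.18) and Nfia (-0.72). Against input 19 were higher and 0 lower with 4E-T (all genes 10.4% and 8.86%). They were led by Prox1 (1.33, called with the group alone too) and Neurod4 (1.25), a proneural-type helix-loop-helix factor. With IgG 9 were higher and 2 lower than input (all genes 6.14% and 10.5%). Zbtb18 (1.12) and Nfia (0.82), both called with the group alone too, were at the top. Emx1 (-0.79) and Hes6 (-0.70) were at the bottom. The list median for 4E-T over IgG was 0.24. With the group alone, 0 of these 50 were called for 4E-T over IgG, 8 higher for 4E-T over input and 2 higher for IgG over input.

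Of 34 genes of intermediate progenitors and new neurons, 7 were higher and 1 lower in 4E-T over IgG (all genes 7.57% and 2.92%). The Notch modifier Mfng (1.27) and the Notch ligand Dll1 (0.97) were highest, and the microtubule protein gene Dcx (-1.11) was lower, which also held with the group alone (adjusted p = 0.0383 in limma). Against input 13 were higher and 6 lower with 4E-T (all genes 10.4% and 8.86%). Dll1 (1.40) and the corepressor gene Tle4 (0.98) were at the top. The stathmin gene Stmn2 (-1.31) and Gadd45g (-0.95) were at the bottom, and all 4 were called with the group alone too. With IgG 7 were higher and 6 lower than input (all genes 6.14% and 10.5%). Dcx (0.89) and Btg2 (0.87) were at the top and Gadd45g (-1.74) and Stmn2 (-1.54) at the bottom, again all called with the group alone. Over the 34 genes, the group alone called 0 higher and 1 lower between 4E-T and IgG, 3 and 2 between 4E-T and input, and 2 and 2 between IgG and input.

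Of 40 corepressor and chromatin remodelling partners, 3 were higher and 1 lower in 4E-T over IgG, near the 7.57% and 2.92% of all genes. Among them were the BAF subunit genes Smarcd1 (0.96), Dpf1 (0.70) and Smarca4 (-0.54). Against input 6 were higher and 5 lower with 4E-T (all genes 10.4% and 8.86%). These included Smarcd1 (1.05) and Sin3a (0.86), the scaffold of a histone deacetylase complex, and the BAF genes Actl6b (-0.87) and Smarcb1 (-0.72). With IgG 4 were higher and 6 lower (all genes 6.14% and 10.5%), including Sin3a (0.58), Gatad2b (0.51), Mbd3 (-1.06) and Actl6b (-1.06). Sin3a and Smarcb1 with 4E-T and Mbd3 with IgG were also called against input with the group alone, which called 0, 2 and 2 of the 40 genes in the 3 comparisons. Of the marker lists, the dorsal cortex markers were higher for 4 of 7 genes in 4E-T over IgG (all genes 7.57%). They were lower for 2 of 7 in IgG over input (all genes 10.5%). The radial precursor markers were higher for 7 of 15 and lower for 1 in 4E-T over IgG (all genes 7.57% and 2.92%). The new neuron markers were higher for 0 and lower for 1 of 10 there, and the Cajal-Retzius markers were higher for 3 of 8. With the group alone, 0 genes of the dorsal cortex, radial precursor and Cajal-Retzius lists were called for 4E-T over IgG. Against input, where members were called, 10.4% of all genes were higher and 8.86% lower with 4E-T. With IgG these shares were 6.14% and 10.5%. The radial precursor markers were higher for 6 and lower for 2 of 15 with 4E-T (median 0.61). They were higher for 3 and lower for 2 with IgG (median 0.17). The new neuron markers were higher for 2 and lower for 2 of 10 with 4E-T (median -0.21), and higher for 1 and lower for 3 with IgG (median -0.17). With 4E-T, 4 of 10 ventral forebrain and interneuron markers, 3 of 8 Cajal-Retzius markers and 2 of 7 dorsal cortex markers were higher and 0 lower. With IgG, 4 of 8 endothelial markers were lower and 0 higher. In the erythroid, meningeal and microglial lists at most 2 genes passed in a direction in either comparison with input, and of the endothelial markers 1 was higher and 1 lower with 4E-T. With the group alone, 4 radial precursor markers were higher and 1 lower with 4E-T, 1 ventral marker was higher with 4E-T, and 1 endothelial marker was lower with IgG. The part of these marker lists in the members' differences was not tested.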

How the data were processed

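Per the submitters' processing notes, the deposited values are log2 intensities that the authors made by RMA in Affymetrix Expression Console. The version and genome build are not given in the sources used here. RMA normalizes by quantiles, which brings the arrays of 1 run to near-equal medians. Precipitation used a Magna RIP kit and amplification a NuGEN Pico protocol, per the labels' protocols. Of 41345 probe sets, 23521 carried 1 symbol, 1814 several and 16010 none; 22180 genes were kept, 1082 of which had several probe sets. There are no detection calls, and the number of arrays limits precision.

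limma 3.58.1 (R 4.3.3; lmFit, eBayes) was fitted to all genes on 10 arrays with terms for group and lower set, with Benjamini-Hochberg adjustment and calls at an adjusted p under 0.05. The members, the lists, the set term and the alternatives were chosen with earlier results of these data known. Named beside the members were, for each of 4 lists, the called genes with the 2 highest and 2 lowest differences in a comparison, and the 2 genes most correlated with each called member (predicted genes, clones, small RNAs and chemoreceptors left out). Errors are standard errors of the fit unless given as SD. Permutation tests used scipy 1.17.1 and figures matplotlib 3.10.9.

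The labels number the replicates. Same-numbered 4E-T and input arrays deviated together from their group means (r = 0.62, 0.24 and 0.28 across genes), above the 0.1 set for pairing. Number 1 is also the lower set, and differently numbered arrays outside it passed too (r = 0.19 to 0.27). This check therefore cannot tell pairing from the lower scale. With the set effect also removed, numbers 2 and 3 gave -0.037 and -0.098, and number 1 is fixed at -1. For IgG and input, number 4 passed 0.1 and numbers 2 and 3 did not (0.32, -0.023 and 0.080). With the set effect also removed, numbers 2, 3 and 4 of IgG and input gave 0.090, 0.091 and 0.27. Differently numbered IgG and input arrays outside the lower set then gave -0.17 to 0.077. Pairing of IgG with input was not used in the main fit. Numbers 2 and 3 alone are shared by 4E-T and IgG (-0.067 and 0.022).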

Additional observations from a re-analysis of the deposited data

Results flagged for a closer look

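Ebf2 on input 4 read 5.03, against 6.49 to 6.71 on the other 3 inputs, a gap of 0.867 of the group's whole range. It stood apart from its group among 10 members examined in the 4 inputs, a rule that chance meets in about 1 of 20 groups. IgG 4, with the same number, was also the lowest of its group at 5.20.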

How the results depend on the processing

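No called member changed sign under any of the 19 alternatives. Between 4E-T and IgG, 1 member was called with quantile normalization and 1 with the filter on dim genes, against 0. Between 4E-T and input the 3 calls became 0 with the group alone, 1 in the 8 arrays outside the lower set, and 1 to 4 when 1 array was left out; without 4E-T 1 or input 1 the fit equals that of the 8 arrays. With the replicate block they became 5, and the block changed no other call of a member or named list gene. Between IgG and input the 4 calls became 0 with the group alone and 2 to 4 when 1 array was left out. Calls in the 4 lists were 27 between 4E-T and IgG (1 with the group alone, 11 to 27 leaving out 1 array), 51 between 4E-T and input (15, and 38 to 57) and 36 between IgG and input (8, and 22 to 33, and 20 with median centring). Why these counts moved was not tested.

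Differences that turned sign were all uncalled. Between 4E-T and IgG these were Eomes (-0.019) and Insm1 (-0.037) with the group alone, Insm1 with quantile normalization (-0.020), Bcl11a (0.012) and Bcl11b (0.031) with the replicate block, Bcl11a with median centring (0.0047), Bcl11b (0.093) and Ebf3 (-0.036) without both arrays numbered 4, and Ebf2 from its other probe set (-0.093). Leaving out 1 array gave -0.15 to 0.070 for Bcl11a, -0.26 to 0.11 for Bcl11b and -0.052 to 0.59 for Ebf3. Between 4E-T and input they were Fezf2 with the block (0.11) and without both arrays numbered 4 (0.078), and the other probe sets of Bcl11a (-0.22) and Ebf2 (-0.070). Leaving out 1 array gave -0.21 to 0.078 for Fezf2 and -0.068 to 0.30 for Myt1l. Between IgG and input they were Ebf2 with median centring (-0.061) and Ebf2 minus Ebf3 in the 8 arrays (0.17). Leaving out 1 array gave -0.25 to 0.75 for Ebf2 and -0.17 to 0.47 for Ebf3. The number of arrays limits the precision.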
